A study of Mus musculus with 10 samples.

Results

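The genes described here are 10 transcription factors and regulators of the path from cortical progenitor to neuron, the Neurog2-Eomes-Neurod cascade. They were chosen by name and known role as Neurog1, Neurog2, Gadd45g, Eomes, Insm1, Btg2, Neurod1, Neurod4, Neurod2 and Neurod6, by a rule that uses no measured value but with earlier results of these data known. They are 10 of the 43629 gene identifiers in the tables, and all 10 passed the low-count filter.

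Total RNA of C57BL/6 mouse embryos at E14.5 came from the dorsal telencephalon, where the cerebral cortex arises. The 5 control (ctrl) samples were Dot1l-cKO f/+ without the Cre allele, so they had 1 floxed copy of Dot1l. The 5 Dot1l-cKO samples were Dot1l-cKO f/f with 1 copy of a Cre allele active in the telencephalon, so Cre could delete both copies of Dot1l, which encodes a methyltransferase of histone H3 lysine residues. All samples shared the floxed allele. The Cre allele was present in the Dot1l-cKO samples alone, so its own effects and those of Dot1l loss cannot be told apart here. The comparison addresses how transcript levels change when Dot1l is lost during cortical neurogenesis.

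In the embryonic cortex, radial glia divide at the ventricle and give rise to neurons either directly or through intermediate progenitors. The proneural factors Neurog1 and Neurog2 are basic helix-loop-helix (bHLH) proteins that start neuronal differentiation, raise Notch ligands and pair with E proteins on the short DNA motif called the E-box. Eomes, also called TBR2, is a T-box factor and the defining marker of intermediate progenitors, in which Insm1, Btg2 and Gadd45g are also expressed. The Neurod factors are bHLH proteins that follow as cells become neurons, with Neurod1 in late progenitors and newborn neurons and Neurod2 and Neurod6 in postmitotic glutamatergic neurons.

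Depth was high and alike, with 54202349 to 66556034 counts per sample. Markers of the labelled tissue were present in every sample, with Pax6 at 84.2 to 136 CPM (counts scaled to a common library size) and Tbr1 at 102 to 287 CPM over the 10 samples. Replicates 2 and 3 of both groups stood apart from the other 6 samples. They shared the number 57 in the column names of the authors' tables, here called the header number, whose meaning is not given in the sources used here. In these 4 samples 0.0471% to 0.492% of counts fell on the mitochondrial rRNA genes, against 5.79% to 10.9% in the others. Dot1l itself was at 31.4 to 41.5 CPM in ctrl against 20.1 to 51.7 CPM in Dot1l-cKO, for a log2 fold change of 0.08 (edgeR adjusted p-value 0.864). The count of a gene sums deleted and retained exons, so it does not check the genotype labels.

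Among the 10 cascade genes, Neurod4 was differentially expressed (DE), with a level 1.93 times as high in Dot1l-cKO as in controls. The early members Neurog1, Neurog2, Gadd45g, Eomes, Insm1 and Btg2 differed by less than the spread between replicates. Neurod2 had the second largest difference, a ratio of means of 1.27, and its adjusted p-value lay just above the threshold of 0.05. The count of DE members was 1 of 10, increased, beside 1212 of 17039 genes tested overall (7.11%), of which 966 were increased (5.67%) and 246 decreased (1.44%). The share among members, 1 in 10, is near that background. By sign, 8 members had a positive and 2 a negative log2 fold change, with a median of 0.10, beside a median of -0.0056 over all genes tested. Neurod4 was the 1 member whose groups did not overlap, where 8.34% of all genes tested had groups that did not overlap.

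**Figure D1:**
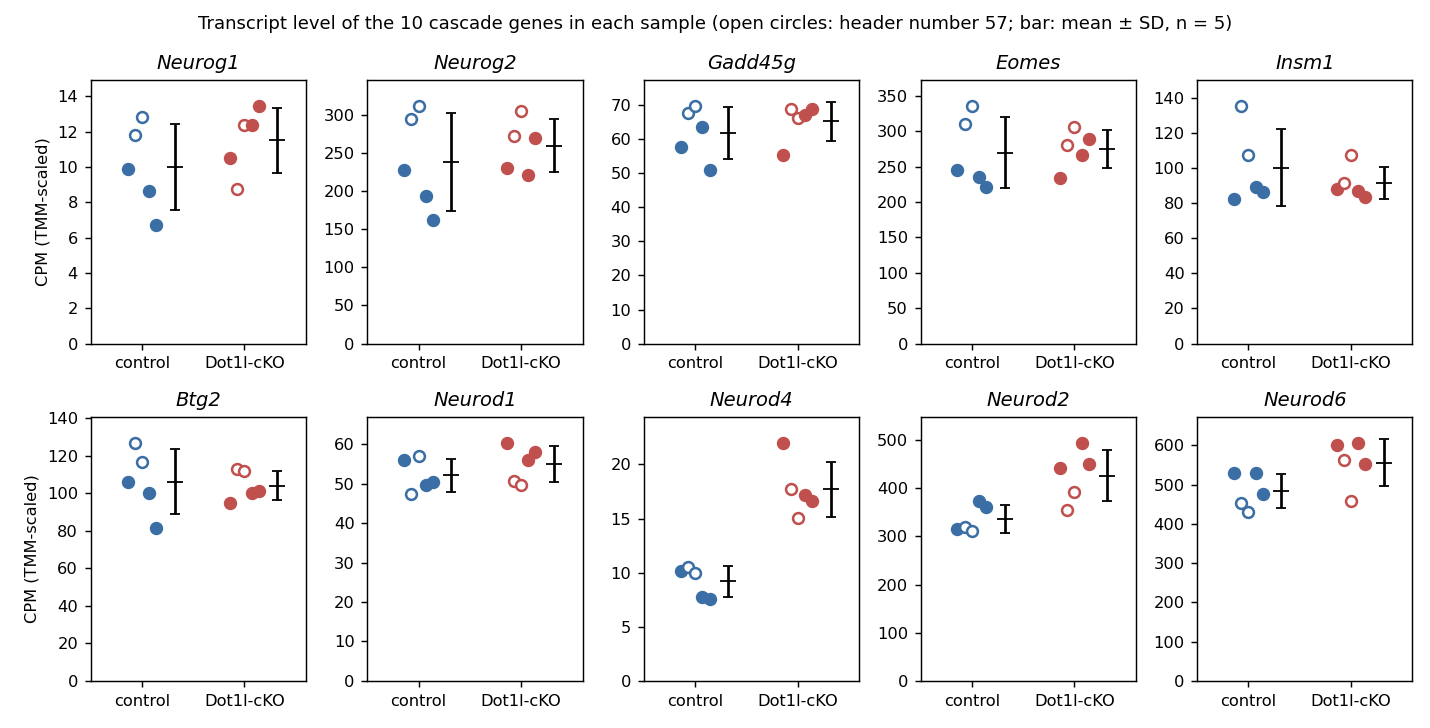
Each panel plots the level of 1 cascade gene in CPM, on a linear axis from 0, in 5 control (blue) and 5 Dot1l-cKO (red) samples, with open circles for header number 57 and the mean ± SD beside the points. The Neurod4 groups are apart, at 7.54 to 10.5 CPM against 15.1 to 21.9 CPM, while the groups of the other 9 genes overlap.

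The regions just before the start sites of Neurod4, Neurod2 and Neurod6 are shown because these genes had the largest positive differences among the Neurod factors and because bHLH proteins bind E-boxes. Each is the 250 bases upstream of the RefSeq start on the minus strand of build GRCm38.p6, written 5′ to 3′, with E-boxes (CANNTG, a palindromic pattern, so both strands are covered) in capitals. The Neurod4 window lies at chr10:130280255-130280504, the Neurod2 window at chr11:98329646-98329895 and the Neurod6 window at chr6:55681264-55681513.
Neurod4: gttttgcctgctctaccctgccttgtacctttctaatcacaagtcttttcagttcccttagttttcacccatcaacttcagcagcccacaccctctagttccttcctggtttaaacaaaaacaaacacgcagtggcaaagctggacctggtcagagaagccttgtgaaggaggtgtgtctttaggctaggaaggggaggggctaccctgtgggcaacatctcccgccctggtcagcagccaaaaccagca
Neurod2: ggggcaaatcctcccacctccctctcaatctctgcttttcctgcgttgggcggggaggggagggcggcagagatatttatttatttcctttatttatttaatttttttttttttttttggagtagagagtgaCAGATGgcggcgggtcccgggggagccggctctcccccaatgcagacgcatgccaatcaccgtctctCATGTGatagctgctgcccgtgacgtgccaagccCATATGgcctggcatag
Neurod6: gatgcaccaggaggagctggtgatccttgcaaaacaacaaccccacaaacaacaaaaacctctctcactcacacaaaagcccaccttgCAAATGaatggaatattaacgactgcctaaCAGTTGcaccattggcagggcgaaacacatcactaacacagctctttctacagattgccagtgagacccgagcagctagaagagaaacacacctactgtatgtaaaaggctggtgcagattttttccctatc

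The Neurod4 window held no E-box, and neither did the window of its second RefSeq start. Neurod2 held 3 and Neurod6 held 2, the stretches in capitals above. Promoter windows were found for 9 of the 10 members, all but Insm1, and 4 of these 9 held at least 1 E-box, namely Neurod1, Neurod2, Neurod6 and Gadd45g. Over 32851 RefSeq promoter windows of the same length, 66.2% held CANNTG. A match to these letters does not mark a bound site, and a window without one says nothing of binding elsewhere.

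Neurog1 and Neurog2 stand at the head of the cascade. Neurog2 (chromosome 3, 127633135 to 127635631) was at 228, 294, 311, 193 and 162 CPM in ctrl replicates 1 to 5. In Dot1l-cKO replicates 1 to 5 it was at 229, 272, 305, 221 and 269 CPM. The groups overlapped over almost the whole range, and the spread was wider among controls, with a coefficient of variation of 27.0% against 13.3%. The log2 fold change was 0.13 (standard error, SE, 0.17, edgeR adjusted p-value 0.736), and its 95% interval ran from -0.25 to 0.51. Neurog1, its close relative, had 5.91 RPKM (CPM per kilobase of exon) in ctrl, where Neurog2 had 107 RPKM. It was at 9.97 ± 2.44 CPM in ctrl against 11.5 ± 1.85 CPM in Dot1l-cKO (SD, n = 5 each). Its log2 fold change was 0.21 (SE 0.18, edgeR adjusted p-value 0.574), with an interval from -0.19 to 0.60. Neither gene had a difference beyond its replicate spread, and these intervals still allow a rise of 1.42 times for Neurog2 and of 1.51 times for Neurog1.

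Eomes (chromosome 9, 118478212 to 118486132), the gene that defines intermediate progenitors, had the smallest positive difference of the 10. Its levels were 246, 310, 336, 235 and 222 CPM in ctrl replicates 1 to 5 and 234, 281, 306, 267 and 290 CPM in Dot1l-cKO replicates 1 to 5. The Dot1l-cKO samples lay within the range of the controls. The log2 fold change was 0.03 (SE 0.12, edgeR adjusted p-value 0.924), and its 95% interval, in fold, was 0.846 to 1.23. Tissue RNA cannot separate the number of cells from the RNA per cell, so the Eomes level does not count Eomes-positive cells.

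The other genes of intermediate progenitors were not DE either. Insm1, a zinc finger factor that promotes the formation of basal progenitors, was at 82.5 to 135 CPM in ctrl against 83.4 to 107 CPM in Dot1l-cKO. Its log2 fold change was -0.13 (SE 0.13, edgeR adjusted p-value 0.634). Btg2, an antiproliferative gene of progenitors that are about to produce neurons, was at 106 ± 17.2 CPM in ctrl against 104 ± 7.84 CPM in Dot1l-cKO (SD, n = 5 each). Its log2 fold change was -0.03 (SE 0.11, edgeR adjusted p-value 0.916). Gadd45g, a stress-response and cell cycle exit gene expressed in differentiating progenitors, had a log2 fold change of 0.08 (SE 0.10, edgeR adjusted p-value 0.718). The widest of these 3 intervals was that of Insm1, from -0.43 to 0.16, and those of Btg2 and Gadd45g ran from -0.27 to 0.21 and from -0.14 to 0.29. Dot1l-cKO replicate 1 had the lowest Gadd45g value of its group, 55.3 CPM, where the other 4 lay between 66.4 and 68.9 CPM.

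Neurod4 (chromosome 10, 130268152 to 130280240, ENSMUSG00000048015), a bHLH factor of differentiating neurons, was at 10.2, 10.5, 9.94, 7.75 and 7.54 CPM in ctrl replicates 1 to 5. In Dot1l-cKO replicates 1 to 5 it was at 21.9, 17.7, 15.1, 17.1 and 16.6 CPM. Each Dot1l-cKO sample was above each control, and the highest value belonged to Dot1l-cKO replicate 1. The means were 9.18 ± 1.42 and 17.7 ± 2.57 CPM (SD, n = 5 each), from 467 to 1162 counts per sample. The log2 fold change was 0.95 (SE 0.13, edgeR adjusted p-value 0.0017), and the 95% interval of the fold was 1.58 to 2.36. Leaving out each sample in turn gave log2 fold changes from 0.86 to 1.00 with adjusted p-values from 0.0033 to 0.0062. In the 6 samples outside header number 57 it was 1.12 (edgeR adjusted p-value 0.0128), and in the 4 samples within it 0.70 (edgeR adjusted p-value 0.184), where 2 samples per group allowed 1 call over all genes.

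Marker genes of other cell types also differed between the groups. Beside the counts below, edgeR called 5.67% of all genes tested increased and 1.44% decreased. At an unadjusted p under 0.05 by edgeR, 2265 of 17039 genes were increased and 1243 decreased. Of 6 microglia markers 6 were increased, with a sum of 31.6 to 54.2 CPM in ctrl against 63.9 to 97.5 CPM in Dot1l-cKO. With the replicate block 5 of 6 were called, as Aif1 then had an edgeR adjusted p-value of 0.0730, and Aif1 and Csf1r were each not called in 8 of the 10 leave-one-out fits. Of 6 Cajal-Retzius markers 3 were increased, namely Lhx5, Ebf2 and Calb2, with a sum of 398 to 615 CPM in ctrl against 598 to 1166 CPM in Dot1l-cKO. With the replicate block Reln was also increased (edgeR adjusted p-value 0.0041), and DESeq2 called 4 of the 6, while Lhx5 was not called in 8 and Calb2 in 4 of the 10 leave-one-out fits. Of 9 markers of the ventral telencephalon 8 were tested and 1, Lhx6, was decreased, with a sum of 55.3 to 286 CPM in ctrl against 5.46 to 83.4 CPM in Dot1l-cKO. All 8 had lower fitted levels in Dot1l-cKO, 7 of them at an unadjusted p under 0.05, while edgeR and DESeq2 each called 1. Within header number 57 edgeR called 0 genes of these 3 lists. Lists for the cortical hem and choroid plexus, erythroid cells, endothelial cells and meninges had 0 genes called by edgeR or DESeq2 and 0 at an unadjusted p under 0.05, although hem and choroid plexus markers spread from 4.02 to 614 CPM among ctrl samples and meningeal markers from 14.7 to 393 CPM. The list for the labelled tissue, of 5 genes, had 1 called, Pax6, decreased, and 3 lower at an unadjusted p under 0.05 by edgeR. In it 1 gene had a positive log2 fold change. Its sum was 499 to 582 CPM in ctrl against 376 to 563 CPM in Dot1l-cKO. No list had a defining marker at 0 in all samples, and the part of other cell types in the Neurod4 difference was not tested.

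Neurod1 (chromosome 2, 79452521 to 79456751), is first switched on as progenitors become neurons. It was at 56.0, 47.4, 56.9, 49.8 and 50.6 CPM in ctrl replicates 1 to 5 and at 60.2, 50.7, 49.7, 56.1 and 58.2 CPM in Dot1l-cKO replicates 1 to 5. The groups overlapped, and the log2 fold change was 0.08 (SE 0.08, edgeR adjusted p-value 0.637), with an interval from -0.10 to 0.25. Neurod1 overlaps Cerkl on the same strand, and Cerkl had 16 to 45 counts per sample beside 2702 to 3803 for Neurod1. How reads shared by both genes were counted is not given, so the Neurod1 count may leave some out.

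Neurod2 (chromosome 11, 98325415 to 98329648), expressed in postmitotic glutamatergic neurons, was at 315, 319, 311, 373 and 360 CPM in ctrl replicates 1 to 5. It was at 441, 354, 392, 493 and 449 CPM in Dot1l-cKO replicates 1 to 5. Dot1l-cKO replicate 2 was the 1 sample of its group that overlapped the controls, and Dot1l-cKO was higher in all 5 same-numbered pairs. The log2 fold change was 0.34 (SE 0.10, edgeR adjusted p-value 0.0566), with a 95% interval from 0.13 to 0.56. With the replicate number as a block it was 0.34 with an edgeR adjusted p-value of 0.0206, and the members called then numbered 2 of 10, beside 9.41% of all genes. By DESeq2, which the study used, the adjusted p-value was 0.0435, beside 10.4% of genes called. The call of Neurod2 therefore depended on the model, while its direction held in each one tried.

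Neurod6 (chromosome 6, 55677822 to 55681263), a marker of the same neurons, was at 529, 454, 431, 529 and 477 CPM in ctrl replicates 1 to 5. It was at 601, 563, 457, 605 and 552 CPM in Dot1l-cKO replicates 1 to 5. Dot1l-cKO was higher in all 5 same-numbered pairs, but the groups overlapped. The log2 fold change was 0.20 (SE 0.09, edgeR adjusted p-value 0.253), and its 95% interval, from -0.0040 to 0.40, just reached 0.

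**Figure D2:**
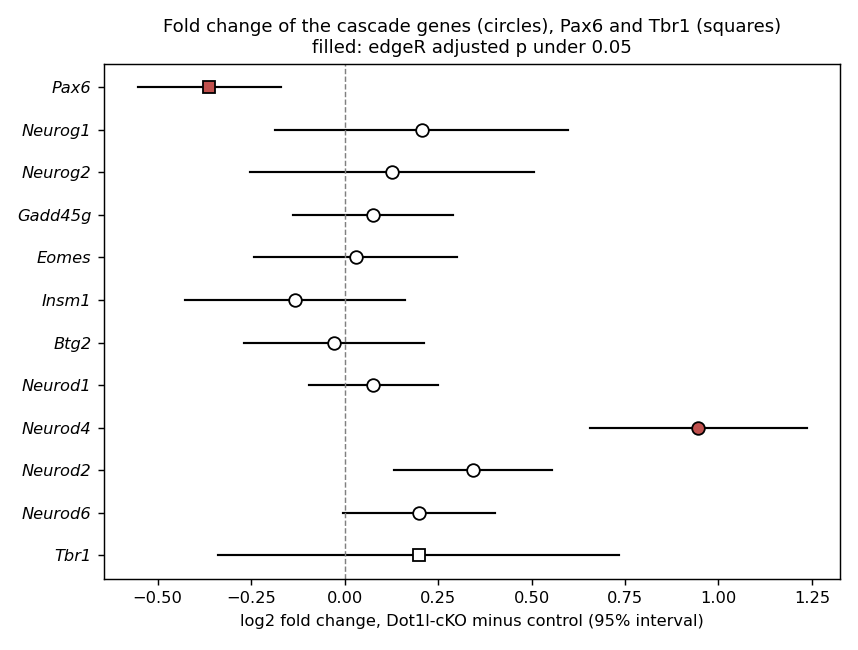
The plot gives the log2 fold change, Dot1l-cKO minus control, of each cascade gene (circles) and of Pax6 and Tbr1 (squares), with 95% intervals that are not adjusted for multiple testing. Filled symbols have an edgeR adjusted p-value under 0.05, which holds for Neurod4 at 0.95 and Pax6 at -0.36.

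Pax6, a radial glia factor that acts before Neurog2, was decreased from 121 ± 13.5 CPM to 94.1 ± 6.52 CPM (SD, n = 5 each), with log2 fold change -0.36 (SE 0.09, edgeR adjusted p-value 0.0294). Its adjusted p-value rose above 0.05 in 7 of the 10 leave-one-out fits. Tbr1, the T-box factor of early glutamatergic neurons that follows Eomes, had a log2 fold change of 0.20 (SE 0.24, edgeR adjusted p-value 0.708). The Dot1l-cKO samples of Tbr1 spread widely, from 102 to 287 CPM, and overlapped the controls.

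Levels of different genes were compared per length, as RPKM, which is CPM divided by the exon length of the gene in kilobases. The order of the means was the same in both groups. In controls Neurod6 was highest at 225 ± 20.6 RPKM, followed by Neurod2 at 107 ± 9.13, Neurog2 at 107 ± 28.8, Eomes at 64.9 ± 12.1, Gadd45g at 52.8 ± 6.57, Btg2 at 38.7 ± 6.26, Insm1 at 32.3 ± 7.03, Neurod1 at 19.1 ± 1.51, Neurog1 at 5.91 ± 1.45 and Neurod4 at 2.74 ± 0.424 RPKM (SD, n = 5 each). From Neurod2 down to Insm1 the range of each gene over the controls overlapped that of the next. Within each control library, Neurog2, Eomes, Gadd45g, Btg2 and Insm1 nevertheless kept this order. Neurod2 and Neurog2 changed places between control libraries, so the order of that pair is not resolved. In Dot1l-cKO the range of Neurog2, at 116 ± 15.5 RPKM, was apart from that of Eomes, at 66.3 ± 6.55 RPKM. The range of Gadd45g was apart from that of Btg2. Neurod4 remained lowest but reached 5.29 ± 0.767 RPKM (SD, n = 5), and its range overlapped that of Neurog1, which had a mean of 6.82 RPKM. In controls these 2 genes were apart. Of the summed RPKM of the 4 Neurod genes, Neurod4 held 0.783% ± 0.159 in controls and 1.26% ± 0.140 in Dot1l-cKO (SD, n = 5 each), so Neurod6 and Neurod2 made up most of the family in both.

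Ratios within a library do not depend on the scaling between libraries and were used to follow the steps of the cascade. They are log2 ratios of RPKM and carry no test. Neurod2 over Neurod1 was 2.48 ± 0.20 in controls and 2.74 ± 0.12 in Dot1l-cKO (SD, n = 5 each), higher in all 5 same-numbered pairs although the groups overlapped. Eomes over Neurog2 was -0.69 ± 0.16 in controls and -0.81 ± 0.11 in Dot1l-cKO (SD, n = 5 each), and it was lower in each of the 5 pairs, again with overlap. Neurod1 over Eomes differed by 0.03 and Neurod6 over Neurod2 by -0.14, both with overlapping groups. A pair of further ratios was added after the data were examined. Eomes over Pax6 was 2.64 ± 0.21 in controls and 3.04 ± 0.24 in Dot1l-cKO (SD, n = 5 each), higher in all 5 pairs, with overlapping groups. Neurod4 over Neurog2 was -5.25 ± 0.23 in controls and -4.46 ± 0.36 in Dot1l-cKO (SD, n = 5 each), with no overlap.

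**Figure D3:**
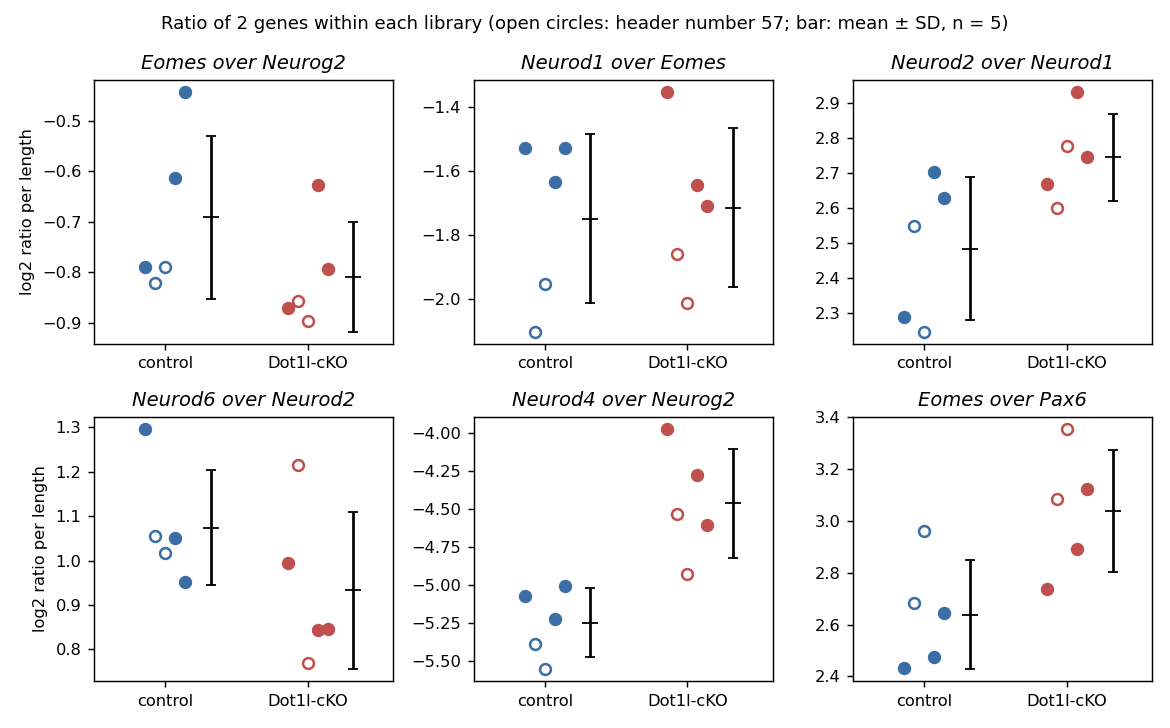
Each panel plots the log2 ratio of the RPKM of 2 genes in each of the 5 control (blue) and 5 Dot1l-cKO (red) samples, with open circles for header number 57 and the mean ± SD beside them. The groups are apart for Neurod4 over Neurog2, at -5.55 to -5.01 against -4.93 to -3.97, and overlap for the other 5 ratios.

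For several members the spread within a group followed the header number. Among controls, both samples with number 57 were above all 3 others for 6 members, namely Neurog1, Neurog2, Gadd45g, Eomes, Insm1 and Btg2. For Eomes they were at 310 and 336 CPM, where the other controls were at 222 to 246 CPM. For Neurog2 they were at 294 and 311 CPM against 162 to 228 CPM. Neurod6 went the other way, at 431 and 454 CPM against 477 to 529 CPM. In Dot1l-cKO the samples with number 57 were above the others for 3 members, Neurog2, Insm1 and Btg2, and below them for 2, Neurod1 and Neurod2, where they were at 354 and 392 CPM against 441 to 493 CPM. Both groups held 2 samples of that number, so it is balanced over the genotypes. How many of all genes tested were separated by header number in this way was not counted, so these counts do not set the members apart.

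The direction of small differences depended on these samples. Within header number 57 the log2 fold change of Eomes was -0.12 (edgeR adjusted p-value 0.616), and in the other 6 samples it was 0.17 (edgeR adjusted p-value 0.438). Neurog1 went from -0.20 to 0.52 and Neurog2 from -0.05 to 0.30 between the same sets, with no edgeR adjusted p-value under 0.05. A test of the difference itself, added after the data were examined, called 0 of 17039 genes by edgeR, with 1071 at an unadjusted p under 0.05. The largest member difference in it was 0.74 for Neurog1, with an edgeR adjusted p-value of 0.728. Neurod2 and Neurod6 had positive values within both sets, 0.26 and 0.39 for Neurod2 and 0.23 and 0.19 for Neurod6.

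**Figure D4:**
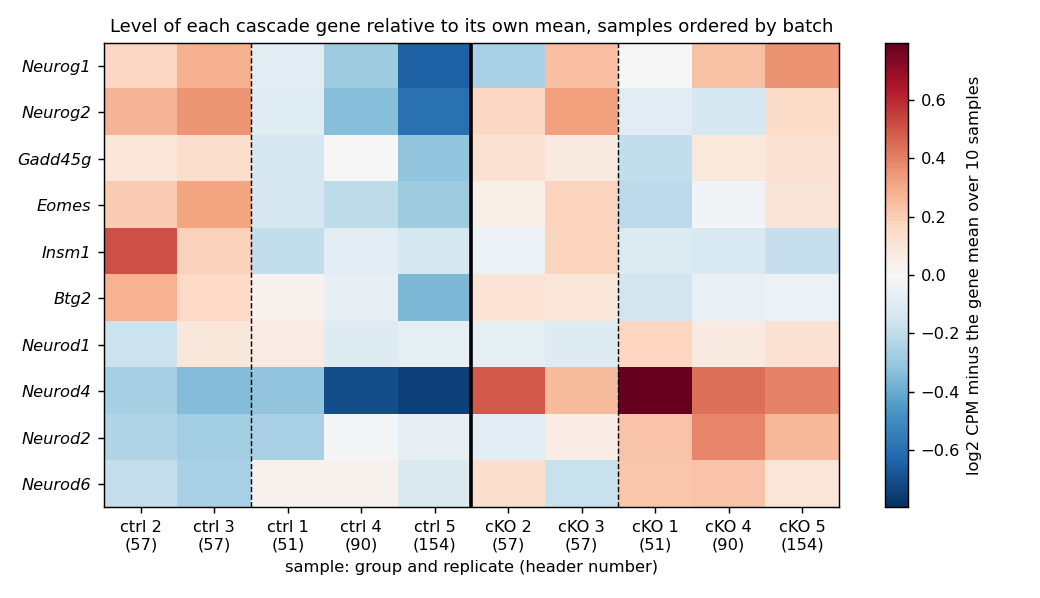
The map gives, for each cascade gene and sample, the log2 CPM minus the mean of that gene over 10 samples, with red above and blue below the mean and samples ordered by group and header number, which stands in parentheses. Neurog1, Neurog2, Gadd45g, Eomes, Insm1 and Btg2 are red in control replicates 2 and 3, and Neurod4 is blue in all 5 controls and red in all 5 Dot1l-cKO samples.

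Related genes were examined in 5 lists. Beside their counts, edgeR called 5.67% of all genes tested increased and 1.44% decreased. At an unadjusted p under 0.05 by edgeR, 2265 of 17039 genes were increased and 1243 decreased. DESeq2 called 1348 of 19302 genes increased and 663 decreased. Other genes of intermediate progenitors and newborn neurons, 16 in number, had 3 increased and 0 decreased by edgeR, with a median log2 fold change of -0.03. At an unadjusted p under 0.05 they had 4 increased and 3 decreased, and by DESeq2 4 and 1. The increased genes were Tac2, Nhlh2 and Sstr2. Nhlh2, a bHLH factor of newborn neurons, was higher, at 33.9 to 54.5 CPM in Dot1l-cKO over 20.9 to 33.6 CPM in ctrl, with log2 fold change 0.72 (SE 0.14, edgeR adjusted p-value 0.0122), with no overlap. Tac2, which encodes the precursor of neurokinin B, had a log2 fold change of 2.24 (SE 0.39, edgeR adjusted p-value 0.0062) but stood at only 0.123 to 0.468 CPM in controls. Sstr2, a somatostatin receptor expressed in intermediate progenitors and young neurons, was named after its values were seen and had a log2 fold change of 0.35 (edgeR adjusted p-value 0.0485), but it was not called in any of the 10 leave-one-out fits, where the log2 fold change ran from 0.25 to 0.38. With the replicate block the same list had 3 increased and 2 decreased genes. The latter were Cbfa2t3 (edgeR adjusted p-value 0.0404) and Plxna2 (edgeR adjusted p-value 0.0300). Both are named after their values were seen, as are Tcf3, Id2, Id3, Id4, Slc1a3, Vim, Sox2 and the called marker genes.

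Notch signalling is what proneural factors induce in neighbouring cells, through ligands such as Dll1, and what represses them in turn, through Hes and Hey effectors. Of 14 Notch genes, 10 had a negative log2 fold change, with a median of -0.18, and 1 was called, decreased. Over all genes tested, 51.2% had a negative log2 fold change. This was Hey1, an effector that represses proneural genes, at 46.2 to 61.9 CPM in ctrl against 42.4 to 46.1 CPM in Dot1l-cKO. The log2 fold change of Hey1 was -0.37 (SE 0.09, edgeR adjusted p-value 0.0248), and the gap between the groups was narrow. Its adjusted p-value rose above 0.05 in 5 of the 10 leave-one-out fits. The receptors Notch1 and Notch2 had log2 fold changes of -0.15 and -0.17 with edgeR adjusted p-values of 0.566 and 0.659.

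Partners and antagonists of the bHLH factors, 9 genes, had 2 increased and 2 decreased. Both decreased genes encode E proteins, the partners with which Neurog and Neurod factors bind DNA. The other E protein gene of the list, Tcf3, was not called. Its log2 fold change was -0.10 (edgeR adjusted p-value 0.582), and its groups overlapped. Tcf4 was at 1013 ± 70.1 CPM in ctrl but 612 ± 89.7 CPM in Dot1l-cKO (SD, n = 5 each), with log2 fold change -0.73 (SE 0.10, edgeR adjusted p-value 0.0020), with each Dot1l-cKO sample below each control. Tcf12 fell by 0.26 on the log2 scale (SE 0.07, edgeR adjusted p-value 0.0467). With the replicate block Tcf12 was not called (edgeR adjusted p-value 0.0581), and it was not called in 9 of the 10 leave-one-out fits. Bhlhe22, a bHLH factor of postmitotic neurons, rose from 161 ± 20.0 to 272 ± 30.6 CPM (SD, n = 5 each), with log2 fold change 0.76 (SE 0.10, edgeR adjusted p-value 0.0016). Id1, which sequesters E proteins, had a log2 fold change of 0.68 (SE 0.17, edgeR adjusted p-value 0.0346) at a mean of 6.82 CPM in ctrl, and it was not called in 8 of the 10 leave-one-out fits. Id3 was not called in the main fit (edgeR adjusted p-value 0.0738). It was increased with the replicate block (edgeR adjusted p-value 0.0298), by DESeq2 (adjusted p-value 0.0159) and outside header number 57 (edgeR adjusted p-value 0.0380). Id2 and Id4 were not called, with log2 fold changes of -0.01 and 0.05 (edgeR adjusted p-values 0.974 and 0.932).

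Close paralogs of the members were mostly not called. Of 12, 9 passed the low-count filter and 1 was increased, Gadd45a, a relative of Gadd45g, with a log2 fold change of 0.89 (SE 0.20, edgeR adjusted p-value 0.0219). It was at 2.87 to 5.57 CPM in ctrl against 5.83 to 8.91 CPM in Dot1l-cKO, and the groups did not overlap. Its adjusted p-value rose above 0.05 in 3 of the 10 leave-one-out fits. Gadd45g itself, at 61.9 ± 7.71 and 65.3 ± 5.69 CPM (SD, n = 5 each), showed no such difference beyond its spread. Btg1, a relative of Btg2, had a log2 fold change of -0.29 (edgeR adjusted p-value 0.367).

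Radial glia genes, which act before the cascade, had 4 increased and 2 decreased of 12. Hopx rose from 11.2 ± 4.37 to 24.1 ± 3.07 CPM (SD, n = 5 each), with log2 fold change 1.10 (SE 0.23, edgeR adjusted p-value 0.0153). Fabp7, a lipid-binding protein of radial glia, had a log2 fold change of 0.62 (SE 0.12, edgeR adjusted p-value 0.0122). Slc1a3 and Vim were the other 2 increased genes. Lhx2, a LIM homeodomain factor of cortical progenitors, was decreased with a log2 fold change of -1.21 (SE 0.10, edgeR adjusted p-value 0.000119), beside Pax6. Sox2 was not called in the main fit (edgeR adjusted p-value 0.0639). It was decreased with the replicate block (edgeR adjusted p-value 0.0091), by DESeq2 (adjusted p-value 0.0121) and outside header number 57 (edgeR adjusted p-value 0.0354).

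Several of these calls were not made in the smaller sets on either side of header number 57. Pax6 had log2 fold changes of -0.25 outside the number and -0.52 within it (edgeR adjusted p-values 0.230 and 0.184), and Hey1 had -0.31 and -0.44 (edgeR adjusted p-values 0.159 and 0.173). Tcf12 had -0.23 and -0.29 (edgeR adjusted p-values 0.219 and 0.341). Each of these 3 genes was thus lower within both sets, though called in neither. Nhlh2 had 0.74 and 0.70 (edgeR adjusted p-values 0.0912 and 0.145), Fabp7 had 0.49 and 0.82 (edgeR adjusted p-values 0.139 and 0.134), and Sstr2 had 0.36 and 0.34 (edgeR adjusted p-values 0.152 and 0.254). These genes were higher within both sets. Hopx and Id1 were called outside the number, at 1.48 and 0.94 (edgeR adjusted p-values 0.0059 and 0.0079), and not within it, at 0.73 and 0.33 (edgeR adjusted p-values 0.166 and 0.645).

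**Figure D5:**
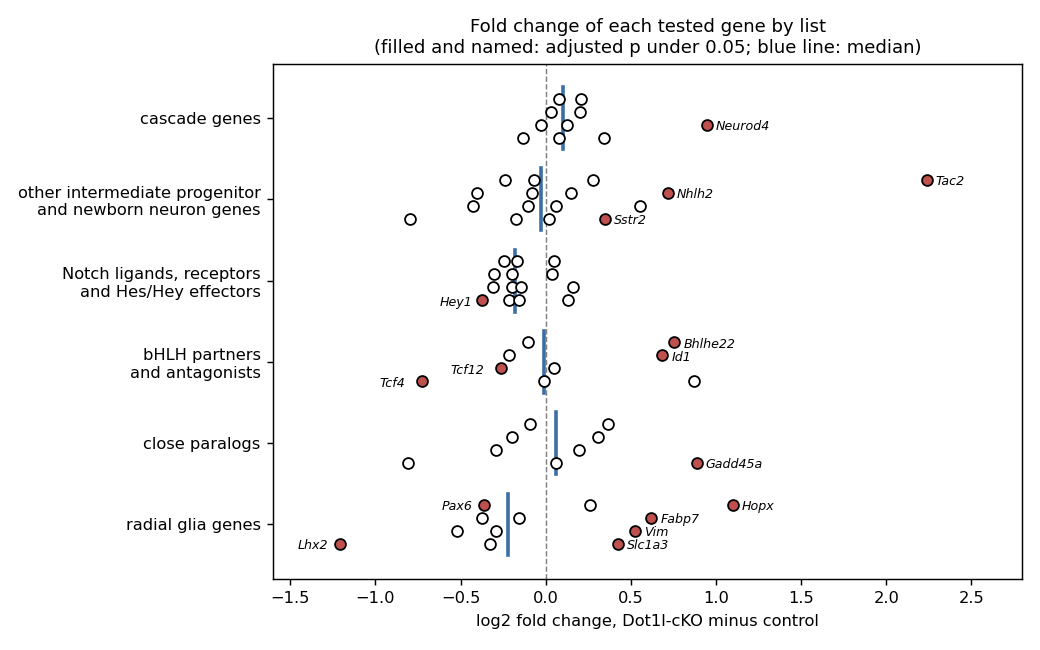
Each point is a tested gene on an axis of log2 fold change, Dot1l-cKO minus control, with 1 row per list, filled and named where the edgeR adjusted p-value was under 0.05, and with a blue line at the median of the list. The cascade genes lie around their median of 0.10 apart from Neurod4 at 0.95, and the Notch genes have a median of -0.18.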

How the data were processed

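Per the labels and the study's methods, stranded libraries of ribosomal-RNA-depleted total RNA were trimmed with Trim Galore 0.2.8, mapped to mm10 with TopHat2 2.0.9 and counted per Ensembl gene with HTSeq 0.6.0 on the reverse strand. The overlap mode of HTSeq is not given in the sources used here. The deposited raw tables hold whole-number counts per gene. The authors also deposited these counts divided by DESeq2 1.6.1 size factors, a normalised signal, which was used to check the raw counts (all 43629 values of each sample gave whole counts within 0.001) and to read the header numbers.

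Members and gene lists were chosen with earlier results of these data known. Named genes are the members, Dot1l, Pax6, Tbr1 and, from each of 5 lists, up to 2 called genes per direction with the largest log2 fold change (where fewer than 2 were called, also the 2 with the highest mean log2 CPM). Counts were fitted in R 4.3.3 with edgeR 4.0.16 (filterByExpr, TMM, quasi-likelihood test of genotype over all genes, Benjamini-Hochberg adjusted p-value under 0.05). CPM used TMM-scaled library sizes, and RPKM used exon union lengths of GENCODE M21. SE is the fold change over the root of the F statistic, and 95% intervals rest on the same fit and are not adjusted. The test was tried on simulated counts. Same-numbered samples deviated together, with correlations over genes of 0.131 to 0.597 in 5 of 5 pairs. Their mean was 0.29, against -0.072 for samples of different number. Dot1l-cKO replicates 3 and 5 correlated most with a control of another number, control replicates 2 (0.350) and 3 (0.446). The labels state no pairing and the meaning of the header number is not given, so the replicate number was a block only in an alternative fit. The blocked value is given where it changes a call. Replicates of a group differed beyond counting noise (chi-square per degree of freedom at least 30.8), so each sample was counted once. The 95% intervals of the fit include this spread between replicates. Counts are of reads, which carried no molecular identifiers.

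Alternatives were DESeq2 1.42.0, its size factors in edgeR, no TMM factors, 2 other low-count filters (none, or 10 counts in every sample), the replicate or header number as a block, samples within or outside header number 57, removal of mitochondrial genes, an adjusted p-value under 0.01, and each sample left out. Set tests and exon-level reads were not used here, and 1 gene of the naming rule is not reported here.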

Additional observations from a re-analysis of the deposited data

Results flagged for a closer look

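A sample was singled out where its gap to the nearest of the other 4 in its group, on the log2 scale, exceeded 0.71 of the spread from lowest to highest in that group. This was so in 3 of 64 groups, and chance alone gives about 1 in 20.

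Gadd45g in Dot1l-cKO replicate 1 had a gap of 0.833 of the range, at 55.3 CPM where the other 4 lay between 66.4 and 68.9 CPM. Dot1l in Dot1l-cKO replicate 2 had a gap of 0.717, at 20.1 CPM where the median was 42.3 CPM. Id1 in control replicate 3 had a gap of 0.780, at 10.2 CPM where the median was 6.12 CPM. The causes were not tested.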

How the results depend on the processing

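Against 1212 called genes, 966 increased and 246 decreased, DESeq2 called 2011 (663 decreased), samples outside header number 57 gave 745 (590 and 155), samples within it 1 (1 and 0, by edgeR with 2 per group, where 1451 and 983 had an unadjusted p under 0.05), and the threshold of 0.01 gave 495 (422 and 73). The decreased genes numbered 148 without TMM factors, 495 with the replicate block and 597 with the header number block. Leaving out 1 sample gave 750 to 1357 called, 624 to 1076 increased and 126 to 343 decreased genes. The total fell by over 1.5 times without control replicate 1 (750) or 4 (779), and so did the decreased genes without control replicate 1 (126), 2 (134) or 4 (136) or Dot1l-cKO replicate 1 (149), 3 (157) or 4 (144). Increased members numbered 2 under DESeq2, without TMM factors and with either block, 0 within header number 57, and 1 to 2 when 1 sample was left out. The count of 2 came without Dot1l-cKO replicate 2, where Neurod2 was called. In each case of 2 these were Neurod4 and Neurod2. Of all genes tested, 10.4% were called in either direction under DESeq2 and 6.81% without TMM factors. The share was 9.41% with the replicate block and 10.7% with the header number block. It was 0.00581% within header number 57 and 6.06% without Dot1l-cKO replicate 2. The replicate block changed the calls of Neurod2 and Tcf12 and of no other gene of the naming rule.

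Direction turned within header number 57 for Eomes (-0.12), Neurog1 (-0.20), Neurog2 (-0.047), Neurod1 (-0.035), Gadd45g (-0.0056), Dot1l (-0.37) and Tbr1 (-0.073), for Btg2 without TMM factors (0.015) and outside header number 57 (0.037), and for Notch2 outside it (0.038). Leaving out 1 sample gave -0.034 to 0.12 for Eomes, -0.11 to 0.041 for Btg2 and -0.046 to 0.25 for Dot1l. None of these values passed the threshold. Omitting the TMM factors moved the median of all genes from -0.0056 to 0.04. The causes were not tested. Depth limits Tac2, with 7 to 175 counts per sample, more than the members, which had at least 416.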
